A study of Mus musculus with 6 samples.

Results

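The genes described here are 30 transcripts that earlier work on haematopoietic stem cells (HSC) reported as more abundant in old than in young mice. They were matched by symbol among the 50763 gene symbols of a count table, and all 30 were found. All 30 also passed the filter on low counts, which left 19313 genes for testing. The cells were bone marrow CD34- KSL cells, that is, lineage-negative cells that carry c-Kit and Sca-1 and lack CD34 on their surface, a sort enriched for long-term HSC. Both groups of mice had the genotype Tal1-tTA+/TRE-EGFR-tr+, in which a doxycycline-repressed activator driven by the blood stem cell gene Tal1 switches on a truncated epidermal growth factor receptor (EGFR). EGFR-DN mice (n = 3 libraries) were kept without doxycycline and made, next to their own receptor, a form without the cytoplasmic tyrosine kinase domain. EGFR-WT mice (n = 3) drank 0.2 g/L doxycycline and made the wild-type receptor only, so the drug separated the groups in every library. No age or number of mice per library was used here, and p-values therefore measure the spread between these libraries, which may be partly technical.

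HSC of old mice are more numerous than those of young mice, yet contribute less to blood after transplantation and give rise to more myeloid cells and platelets and fewer lymphocytes. The transcripts known to accumulate in them do not form a single pathway. They include stress-response and metal-binding proteins, adhesion proteins shared with platelets and endothelium, enzymes, surface receptors and proteins that shape the cell membrane. Several of them, such as Vwf, Selp and Itgb3, also mark the HSC that are biased towards the platelet lineage.

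The libraries held 24073133 to 36032428 counts. Egfr was counted 991 to 4758 times in the EGFR-DN libraries and 6 times in each EGFR-WT library, which matched the labels, although whether transgene reads are counted to Egfr is not stated. In EGFR-WT this was 0.160 to 0.237 CPM, little above a floor of 3 counts, so transcript of the wild-type receptor was barely detected. Kit lay at 736 CPM (counts scaled to a common library size, with factors from the trimmed mean of M-values, TMM) or more and Ly6a, which encodes Sca-1, at 46.7 CPM or more in every library. Cd34 transcript was present at 318 to 569 CPM although the cells were sorted as CD34-negative. EGFR-DN replicate 3 stood apart, with 25.4% of its counts in 8 rRNA-like genes against 4.71% to 6.15% in the other libraries, so results that rest on it are given with and without it.

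Most of the age-associated transcripts had lower mean levels in EGFR-DN, but none passed the main test over all genes. Of the 30, 27 had a log2 fold change (EGFR-DN minus EGFR-WT) below 0, against 49% of all genes tested, and the median was −0.64 against 0.0099 for all genes. With the quasi-likelihood test of edgeR, 0 members had an adjusted p under 0.05 in the lower direction (0% of all genes), and their adjusted p ranged from 0.690 to 0.991. At an unadjusted p under 0.05, 11 members were lower (2.4% of all genes) and 1 was higher (4.3%). With DESeq2, 1 member was lower at an adjusted p under 0.05 (0.186% of all genes), and with limma-voom 0 were (0% of all genes). In 10 members every EGFR-DN library lay below every EGFR-WT library (8.72% of all genes), and in 1 every EGFR-DN library lay above (9.21%). The members had been chosen with earlier results of these data known, so these counts describe the list and are not independent support for its direction. In bulk RNA, fewer cells of a type and less RNA per cell cannot be told apart.

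**Figure D1:**
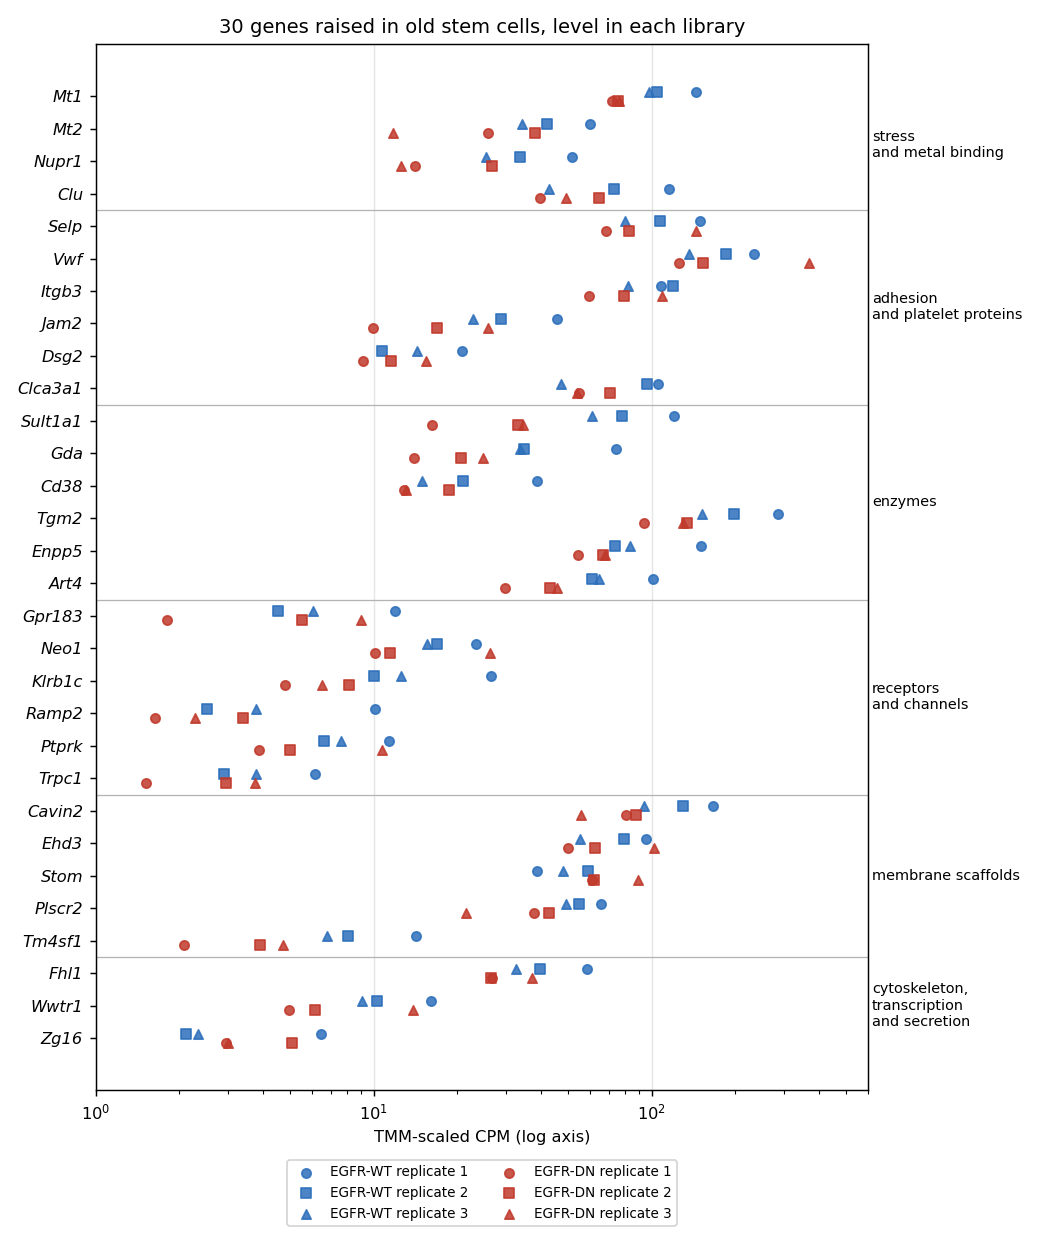
Level of each of the 30 genes in each library as TMM-scaled CPM on a log axis, grouped by role; blue symbols are EGFR-WT, red symbols EGFR-DN, and the shape gives the replicate. EGFR-WT replicate 1 is the highest library for 25 of the 30 genes and EGFR-DN replicate 1 the lowest for 22.

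Many members shared their highest and lowest library. EGFR-WT replicate 1 was the highest of the 6 libraries for 25 of the 30 members, against 16.9% of all genes. EGFR-DN replicate 1 was the lowest for 22 members, against 14.9% of all genes. Among the controls, EGFR-WT replicate 1 lay above replicate 2 in 28 members and above replicate 3 in 29, against 50.8% and 49.9% of all genes. Among the EGFR-DN libraries, replicate 2 lay above replicate 1 in 29 members, against 50.1% of all genes. The other pairs within a group were less one-sided: EGFR-WT replicate 2 lay above replicate 3 in 21 members (49.9% of all genes), and EGFR-DN replicate 3 above replicate 1 in 25 (50.5%) and above replicate 2 in 19 (48.9%). The median member, relative to its mean in EGFR-WT, was at 0.44, −0.15 and −0.43 on the log2 scale in EGFR-WT replicates 1 to 3 and at −0.93, −0.54 and −0.59 in EGFR-DN replicates 1 to 3. By this median every EGFR-DN library lay below every control, but by less than the range among the controls.

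Because EGFR-WT replicate 1 was so high, the comparison was repeated without it. The median log2 fold change of the members was then −0.30, 24 were below 0 (48.9% of all genes), and 6 were lower at an unadjusted p under 0.05 (0.762% of all genes). Leaving out EGFR-DN replicate 3 instead gave a median of −0.74, with 28 members below 0 (51.1% of all genes). In that comparison 18 were lower at an unadjusted p under 0.05 (6.99% of all genes), and 0 passed after adjustment by edgeR (0.0552% of all genes were called lower). DESeq2 called 9 lower (1.93% of all genes) with 17 at an unadjusted p under 0.05 (6.92%). The 9 were Tm4sf1 (DESeq2 adjusted p = 0.000524), Mt1 (0.00225), Plscr2 (0.0131), Sult1a1 (0.0167), Itgb3 (0.0209), and Wwtr1, Neo1, Fhl1 and Ptprk, given below. This DESeq2 comparison was added after the data were seen. In 16 members both remaining EGFR-DN libraries lay below all controls (16.1% of all genes).

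**Figure D2:**
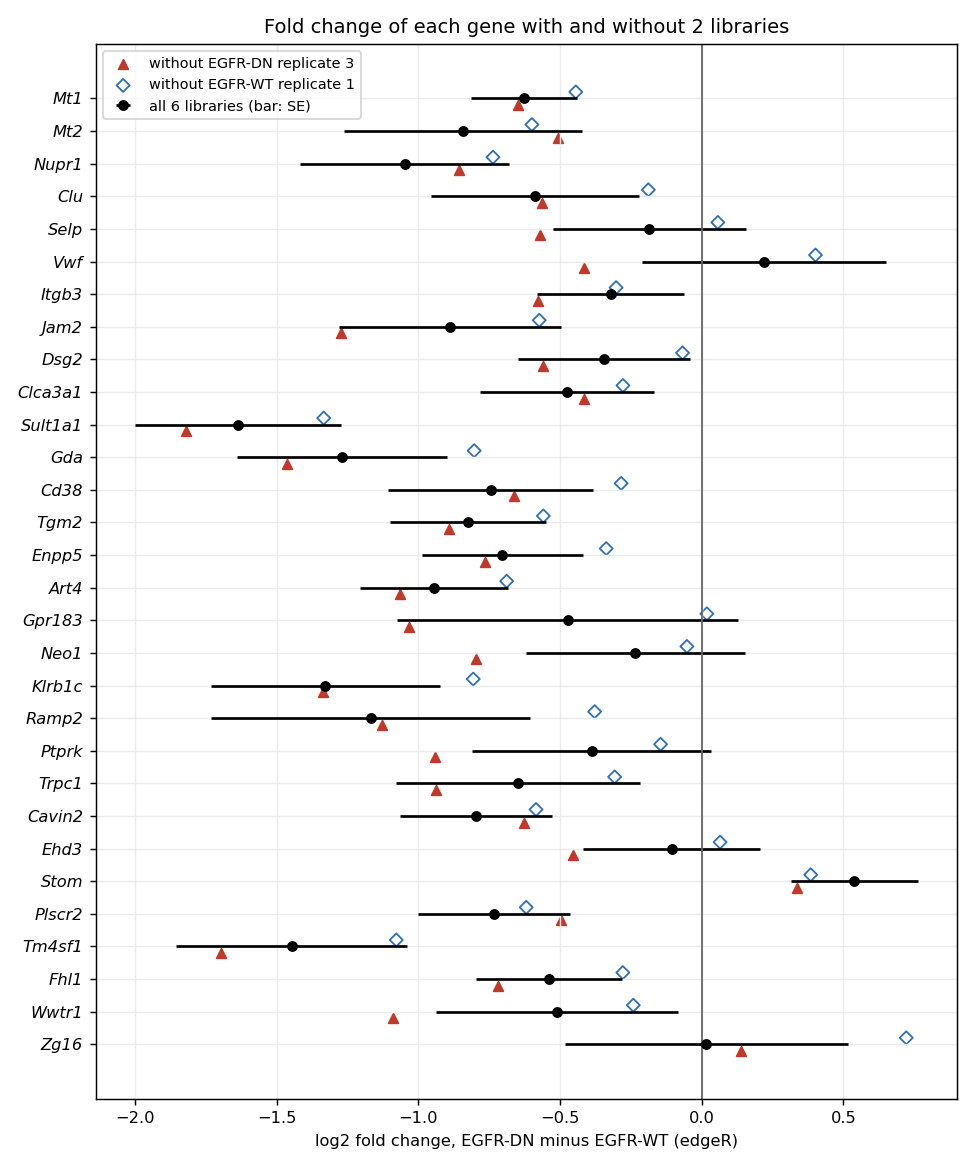
Log2 fold change of each gene, EGFR-DN minus EGFR-WT, from edgeR; black points with SE bars use all 6 libraries, red triangles leave out EGFR-DN replicate 3 and open blue diamonds leave out EGFR-WT replicate 1. Values run from −1.64 for Sult1a1 to 0.54 for Stom, and Vwf lies at 0.22 with all libraries but at −0.41 without EGFR-DN replicate 3.

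Of the stress and metal-binding genes, the metallothioneins Mt1 and Mt2 were the most abundant members per transcript length. Metallothioneins are small cysteine-rich proteins that hold zinc and copper, and their genes are induced by metals, glucocorticoids and oxidative stress. Per kilobase of the longest annotated coding transcript, Mt1 stood first of the 30 in EGFR-WT at 106 ± 23.4 CPM per kb (SD, n = 3) and Mt2 came next at 88.9 ± 25.7, a difference within the spread between libraries. The Mt1 value depends on the transcript model, since the longest one has 1085 nucleotides against 511 for Mt2. Mt1 was at 72.3, 75.6 and 76.6 CPM in EGFR-DN replicates 1 to 3 and at 145, 104 and 97.8 CPM in EGFR-WT replicates 1 to 3. The groups did not overlap, and the EGFR-DN libraries lay close together (log2 fold change −0.63, SE 0.19, edgeR adjusted p = 0.690). With DESeq2 the adjusted p of Mt1 was 0.193 with all libraries and 0.00225 without EGFR-DN replicate 3. Mt2 was at 25.9, 38.2 and 11.7 CPM against 59.9, 42.2 and 34.2 CPM, and its groups overlapped through EGFR-DN replicate 2 (−0.84, SE 0.42, and −0.51 without EGFR-DN replicate 3). The ratio of Mt1 to Mt2 was between 1.98 and 2.86 in 5 libraries and 6.54 in EGFR-DN replicate 3. Reads from these related genes may have been split between them by the counting.

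Metallothionein genes are classic targets of the zinc sensor MTF1, which binds metal response elements, so the bases before their RefSeq start sites were searched for the core of that element. The searched letters were TGCACNC and TGCGCNC on both strands, in the 250 bases before each start in the RefSeq promoter table (GRCm38.p6, an earlier build than the mm39 named for the counts). The Mt1 window is chr8:94178839-94179088 on the + strand, the Mt2 window chr8:94172368-94172617 on the + strand, and the window of Tm4sf1, another member with a match and a large difference between the groups, chr3:57301989-57302238 on the − strand. They are shown 5′ to 3′ with matches in capitals.
Mt1: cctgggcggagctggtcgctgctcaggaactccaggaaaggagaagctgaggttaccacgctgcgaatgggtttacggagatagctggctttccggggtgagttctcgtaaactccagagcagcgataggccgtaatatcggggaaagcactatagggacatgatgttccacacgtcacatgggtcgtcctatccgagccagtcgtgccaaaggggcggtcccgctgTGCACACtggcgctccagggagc
Mt2: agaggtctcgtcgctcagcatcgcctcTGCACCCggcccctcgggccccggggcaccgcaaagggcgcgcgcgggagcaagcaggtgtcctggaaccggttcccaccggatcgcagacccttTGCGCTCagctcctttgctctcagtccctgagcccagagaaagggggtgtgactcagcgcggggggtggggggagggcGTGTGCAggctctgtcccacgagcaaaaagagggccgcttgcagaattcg
Tm4sf1: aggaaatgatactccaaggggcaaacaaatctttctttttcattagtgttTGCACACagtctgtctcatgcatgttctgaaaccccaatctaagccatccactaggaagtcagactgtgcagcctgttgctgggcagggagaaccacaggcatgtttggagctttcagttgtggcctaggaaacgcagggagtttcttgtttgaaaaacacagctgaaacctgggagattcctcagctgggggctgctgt
Mt2 held 3 matches, a number reached by 1.26% of the 32851 promoters in the table, and Mt1 and Tm4sf1 held 1 each. A promoter window was matched for 20 members, and 5 of them (Mt1, Mt2, Ptprk, Selp and Tm4sf1) held at least 1 match, or 25% against 21.4% of all promoters. Ptprk, with 2 matches, and Selp, with 1, had log2 fold changes of −0.39 (SE 0.42) and −0.18 (SE 0.34). GATA letters (AGATAA or TGATAA) were in 3 of the 20 windows, or 15% against 16.6%, ETS letters (CCGGAA) in 2, or 10% against 12%, and AP-1 letters (TGANTCA) in 2, or 10% against 6.75%, all on both strands. The 300-base RefSeq windows of Mt1 and Mt2, which include the printed bases, held 0 TATAAA on either strand. Whether these RefSeq starts are the ones used in these cells was not examined, so the matches describe the printed windows only. Bases outside the 250 before each start were not searched, so elements there are not counted.

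The other stress genes also had lower means in EGFR-DN. Nupr1, a small chromatin-associated regulator induced by cell stress, was at 14.1, 26.7 and 12.6 CPM in EGFR-DN and 51.6, 33.6 and 25.4 CPM in EGFR-WT, so EGFR-DN replicate 2 lay just above EGFR-WT replicate 3 (−1.05, SE 0.37). Clu, a secreted chaperone, was at 39.6, 64.9 and 49.2 against 115.3, 73.2 and 42.6 CPM (−0.59, SE 0.37), and its lowest control lay within the EGFR-DN range. Without EGFR-WT replicate 1 the log2 fold change of Clu was −0.19. Both were highest in EGFR-WT replicate 1.

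Among the groups of members, the enzymes were most often apart. All 6 enzyme genes had a log2 fold change below 0 (49% of all genes). At an unadjusted p under 0.05, 5 were lower (2.4%), and the same 5 had groups that did not overlap (8.72%). Sult1a1, a sulfotransferase that conjugates phenols and drugs, was at 16.2, 33.0 and 34.5 CPM in EGFR-DN replicates 1 to 3 and at 121, 78.0 and 61.2 CPM in EGFR-WT replicates 1 to 3. Every EGFR-DN library lay well below every control, and the control mean was 3.10-fold the EGFR-DN mean (log2 fold change −1.64, SE 0.36). This difference passed with DESeq2 (adjusted p = 0.00662) and did not pass with edgeR (adjusted p = 0.690) or limma-voom (adjusted p = 0.677). Per kilobase Sult1a1 was the third most abundant member in EGFR-WT, at 63.2 ± 22.4 CPM per kb, within the spread of Tgm2 at 58.8 ± 19.0.

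Gda, the guanine deaminase that turns guanine into xanthine, was at 13.97, 20.6 and 24.7 CPM in EGFR-DN against 74.6, 34.7 and 33.6 CPM in EGFR-WT (−1.27, SE 0.37). EGFR-WT replicate 1 exceeded the other controls here by more than those controls exceeded the EGFR-DN libraries, and without it the log2 fold change was −0.80. Art4, an ADP-ribosyltransferase relative that carries the Dombrock blood group in humans, was at 29.7, 43.0 and 45.6 against 102, 61.1 and 64.7 CPM (−0.94, SE 0.26). The groups did not overlap in either gene.

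Tgm2, a transglutaminase that cross-links proteins, was at 93.7, 135 and 129.7 CPM in EGFR-DN and 285, 197 and 151 CPM in EGFR-WT (−0.82, SE 0.27). Enpp5, a membrane phosphodiesterase family member, was at 54.5, 66.8 and 68.1 against 150.3, 74.1 and 84.0 CPM (−0.70, SE 0.28). Both were apart in all libraries, but the nearest libraries of the 2 groups were close in Enpp5. Cd38, which breaks down NAD and is known as a surface marker that rises on ageing HSC, was at 12.9, 18.7 and 13.0 against 38.8, 21.03 and 14.9 CPM (−0.74, SE 0.36). Its groups overlapped, and without EGFR-WT replicate 1 its log2 fold change was −0.28. That of Enpp5 was then −0.34.

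The membrane scaffold genes differed in direction. Tm4sf1, a tetraspan protein of endothelial and tumour cell membranes, was at 2.07, 3.91 and 4.72 CPM in EGFR-DN and 14.2, 8.07 and 6.78 CPM in EGFR-WT. These groups did not overlap, at a level of at least 71 counts in every library (−1.45, SE 0.41). Cavin2, a coat protein of caveolae, was at 81.2, 87.9 and 55.6 against 167, 129.6 and 93.8 CPM (−0.80, SE 0.27). Plscr2, a phospholipid scramblase family member, was at 37.7, 42.6 and 21.5 against 65.6, 54.7 and 49.1 CPM (−0.73, SE 0.27). In both genes EGFR-DN replicate 3 was the lowest library and the groups were apart. Stom, the stomatin gene of the red cell and platelet membrane, went the other way, at 61.2, 62.3 and 89.1 CPM in EGFR-DN and 38.8, 59.3 and 48.1 CPM in EGFR-WT. It was the 1 member whose EGFR-DN libraries all lay above the controls (0.54, SE 0.23, and 0.34 without EGFR-DN replicate 3), and the 1 member for which EGFR-WT replicate 1 was the lowest library (16.5% of all genes). Ehd3, a membrane-bending ATPase of endosomes, was at 49.8, 62.7 and 101.7 against 95.4, 79.7 and 55.2 CPM, with full overlap (−0.11, SE 0.31).

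Adhesion and platelet proteins overlapped between the groups in all 6 genes, as most genes did. Of all genes, 8.72% had every EGFR-DN library below every control and 9.21% every one above. Vwf encodes von Willebrand factor, which tethers platelets to the vessel wall and marks platelet-biased HSC. It was at 125, 153 and 368 CPM in EGFR-DN and 233, 186 and 136 CPM in EGFR-WT, so EGFR-DN replicate 3 was the highest library and replicate 1 the lowest (0.22, SE 0.43). Selp, the P-selectin that platelets and endothelium move to their surface on activation, was at 68.3, 83.0 and 145 against 149, 107 and 80.4 CPM (−0.18, SE 0.34). EGFR-DN replicate 3 was the highest EGFR-DN library for both Vwf and Selp, and without it their log2 fold changes were −0.41 and −0.57.

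Itgb3, the beta chain of the platelet fibrinogen receptor, was at 59.6, 79.3 and 109 CPM in EGFR-DN and 108, 119.7 and 81.9 CPM in EGFR-WT (−0.32, SE 0.26). Its log2 fold change was −0.58 without EGFR-DN replicate 3 (DESeq2 adjusted p = 0.0209). The junctional adhesion gene Jam2 was at 9.98, 16.9 and 25.8 against 45.6, 28.8 and 22.7 CPM, and only EGFR-DN replicate 3 reached into the control range (−0.89, SE 0.39). Dsg2, a desmosomal cadherin, had a log2 fold change of −0.34 (SE 0.30). Clca3a1, of a family of chloride channel regulators, had one of −0.48 (SE 0.31), with EGFR-WT replicate 3 as its lowest library at 47.2 CPM. Without EGFR-WT replicate 1 the log2 fold changes of Jam2, Dsg2 and Clca3a1 were −0.57, −0.07 and −0.28. None of these 6 genes was lower at an unadjusted p under 0.05 with all libraries (2.4% of all genes). Without EGFR-DN replicate 3, 3 were (6.99%).

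Receptors and channels were at 26.4 CPM or less in every library, and the log2 fold change was below 0 in 6 of 6 (49% of all genes). Klrb1c encodes the activating lectin-like receptor known as NK1.1 on natural killer cells of some mouse strains. It was at 4.78, 8.14 and 6.54 CPM in EGFR-DN and 26.4, 9.99 and 12.5 CPM in EGFR-WT, with no overlap (−1.33, SE 0.40, and −0.81 without EGFR-WT replicate 1). Ramp2, which turns the calcitonin receptor-like receptor into an adrenomedullin receptor, was at 1.63, 3.38 and 2.28 against 10.1, 2.50 and 3.79 CPM. Its difference rested on EGFR-WT replicate 1, moving from −1.17 (SE 0.56) to −0.38 without that library.

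Neo1, the netrin and repulsive guidance receptor neogenin, was at 10.1, 11.4 and 26.2 CPM in EGFR-DN and 23.4, 16.9 and 15.6 CPM in EGFR-WT (−0.23, SE 0.39). Ptprk, a receptor tyrosine phosphatase known to act on EGFR, was at 3.88, 5.02 and 10.8 against 11.3, 6.64 and 7.61 CPM (−0.39, SE 0.42). In both genes EGFR-DN replicates 1 and 2 lay below all controls while replicate 3 lay among or above them. Without replicate 3 the log2 fold changes were −0.80 and −0.94, and DESeq2 then called both lower (adjusted p = 0.00519 and 0.0273). Gpr183, the oxysterol receptor that guides B cells in lymphoid tissue, ranged from 1.81 to 8.98 CPM in EGFR-DN and from 4.53 to 11.9 CPM in EGFR-WT (−0.47, SE 0.60). Trpc1, a cation channel subunit, was the least abundant member per kilobase at 0.937 CPM per kb in EGFR-WT (−0.65, SE 0.43). Without EGFR-WT replicate 1 the log2 fold changes of Neo1, Ptprk and Trpc1 were −0.05, −0.15 and −0.31.

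The remaining 3 members act in the cytoskeleton, in transcription or outside the cell. Fhl1, a LIM-domain scaffold of the cytoskeleton, was at 26.7, 26.5 and 37.1 CPM in EGFR-DN and 58.7, 39.7 and 32.6 CPM in EGFR-WT (−0.54, SE 0.26). Wwtr1 encodes TAZ, the transcriptional coactivator held back by the Hippo kinases, and was at 4.96, 6.16 and 13.8 against 16.0, 10.3 and 9.07 CPM (−0.51, SE 0.43). In both genes only EGFR-DN replicate 3 reached the control range, and without it DESeq2 called both lower (log2 fold changes −0.72 and −1.09, adjusted p = 0.0238 and 0.00393). Without EGFR-WT replicate 1 they were at −0.28 and −0.24. Zg16, a secreted lectin best known from pancreas and gut, was at 2.95, 5.08 and 2.99 against 6.48, 2.11 and 2.33 CPM and its groups overlapped (0.016, SE 0.50).

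The place of EGFR-DN replicate 3 among the EGFR-DN libraries differed from member to member, and it went with transcript length. It was the highest of the 6 libraries for 4 members (38.1% of all genes) and the lowest for 4 (38.4%). Mt2, Plscr2, Nupr1 and Cavin2 were lower there than in the other EGFR-DN libraries, and Vwf, Wwtr1, Neo1, Gpr183 and Ptprk were higher. Across the 30 members the log2 level in replicate 3, relative to the mean of EGFR-DN replicates 1 and 2, correlated with the log2 length of the longest coding transcript at r = 0.75 (rho = 0.75). Across 12804 genes with an annotated length, r was 0.42 and rho 0.43. These are correlations across genes that share the same 3 libraries, and the genes are not independent replicates. Of the 15 members longer than the median member (3162.5 nucleotides), 13 were higher in replicate 3, with a median shift of 0.72, and of the 15 shorter ones 8 were, with a median shift of 0.017. Split at the same length, 4123 of 6307 longer genes among all tested genes with a length were higher there (median 0.34) and 2270 of 6497 shorter ones (median −0.32). For the EGFR-DN to EGFR-WT difference, r with length was 0.29 over the members with all libraries and −0.12 without replicate 3. The long members had a median log2 fold change of −0.48 with all libraries and −0.80 without replicate 3, whereas the short ones had −0.73 and −0.72. The share of rRNA-like counts in this library, given above, moved with the shift, and its part in it was not tested.

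**Figure D3:**
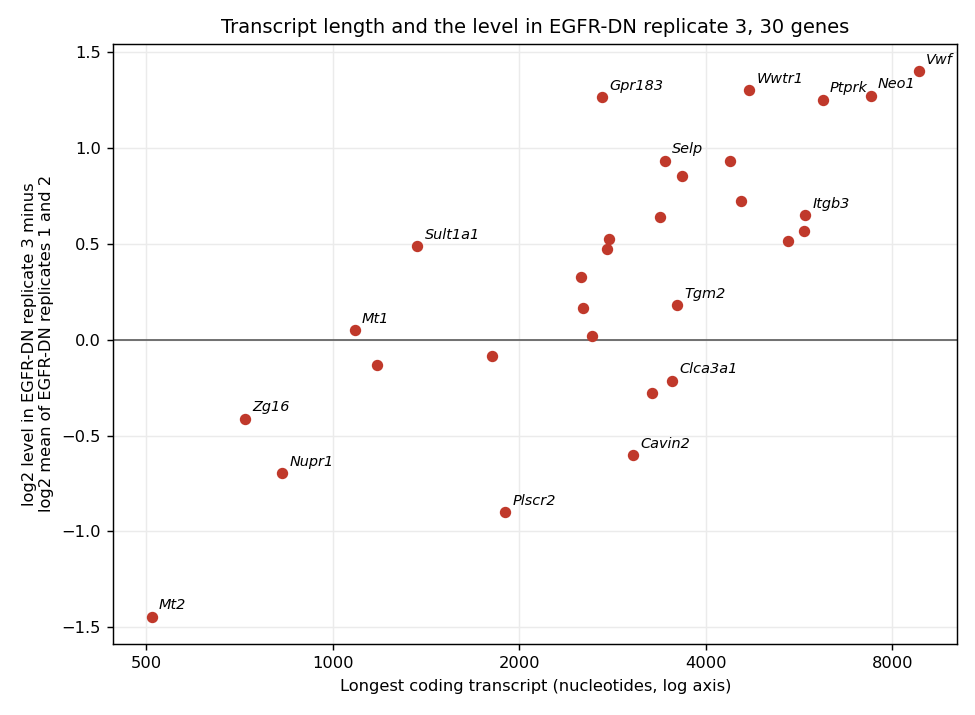
For each of the 30 genes, the log2 level in EGFR-DN replicate 3 minus the log2 mean of EGFR-DN replicates 1 and 2, against the length of the longest coding transcript in nucleotides on a log axis; each point is 1 gene. The short transcripts Mt2 (−1.44) and Nupr1 (−0.69) lie below 0 and the long ones Neo1 (1.27) and Vwf above. Of the 15 members longer than the median 13 lie above 0, and of the 15 shorter ones 8 do.

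A second list of 18 genes also described as raised in old HSC, and not among the 30, showed similar counts. It too was chosen with earlier results of these data known, so it is not independent support for the direction. Of these 18 genes, 14 had a log2 fold change below 0 (median −0.45), against 49% of all genes. At an unadjusted p under 0.05, 5 were lower (2.4% of all genes) and none was higher (4.3%), and 0 passed after adjustment by edgeR. Without EGFR-WT replicate 1 the median was −0.27 and 2 were lower at that p (0.762% of all genes). Without EGFR-DN replicate 3 the median was −0.70, with 9 lower (6.99% of all genes) and 2 higher (6.64%). Aldh1a1, a retinaldehyde dehydrogenase, was at 57.8, 66.5 and 44.5 CPM in EGFR-DN and 128, 110.4 and 97.5 CPM in EGFR-WT (−0.99, SE 0.20), with an adjusted p of 0.642 by edgeR and 0.00531 by DESeq2. Mmrn1, the platelet and endothelial protein multimerin, was at 239.9, 292 and 263 CPM in EGFR-DN and 589.6, 485 and 361 CPM in EGFR-WT, with no overlap (−0.85, SE 0.23). DESeq2 called Mmrn1 lower (adjusted p = 0.0477), and edgeR did not (adjusted p = 0.690). Runx1t1, a transcriptional corepressor, was at 4.96, 5.47 and 10.5 against 21.6, 11.0 and 12.4 CPM (−1.11, SE 0.39). The adhesion molecule Alcam had a log2 fold change of −0.41 (SE 0.15). EGFR-WT replicate 1 again had the highest median of this list, at 0.42 against −0.18 and −0.30 in the other controls.

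Known binding partners and relatives of the members gave a mixed picture, with 12 of 27 tested below 0 (median 0.05). At an unadjusted p under 0.05, 3 genes were lower (2.4% of all genes) and Selplg was higher (4.3%). The list held 40 genes, of which 13 were too low to test, among them Ramp3, Ch25h, Rgma, Mt4 and Tead4, which had at most 3 counts in every library. Jam3, a partner of Jam2, was at 3.76, 4.71 and 5.12 CPM in EGFR-DN and 10.9, 6.90 and 7.18 CPM in EGFR-WT (−0.88, SE 0.27). The caveolar genes Cavin1 (−0.82, SE 0.29) and Cavin3 (−0.74, SE 0.24) had groups that did not overlap, as Cavin2 did. In contrast Calcrl, the receptor that Ramp2 modifies, was nearly level, between 118 and 135 CPM in all libraries (0.05, SE 0.14). Itga2b, the alpha chain paired with Itgb3 on platelets, had overlapping groups (−0.0020, SE 0.35). Selplg, the ligand of Selp on white cells, was higher, at 191, 185 and 161 against 113.9, 120 and 129 CPM (0.56, SE 0.15), with an adjusted p of 0.690 by edgeR and 0.0477 by DESeq2. Without EGFR-DN replicate 3 Selplg passed with edgeR (log2 fold change 0.63, adjusted p = 0.0412), as the 1 partner called higher (0.231% of all genes), and 0 were called lower (0.0552%). In the same libraries DESeq2 called 4 partners lower (1.93% of all genes) and 2 higher (500 of 19919 genes). The median of the partners was then 0.01 with edgeR, with 13 of 28 tested below 0. The metal sensor Mtf1 (0.20, SE 0.18) and the zinc exporter Slc30a1 (0.09, SE 0.24) had log2 fold changes above 0.

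**Figure D4:**
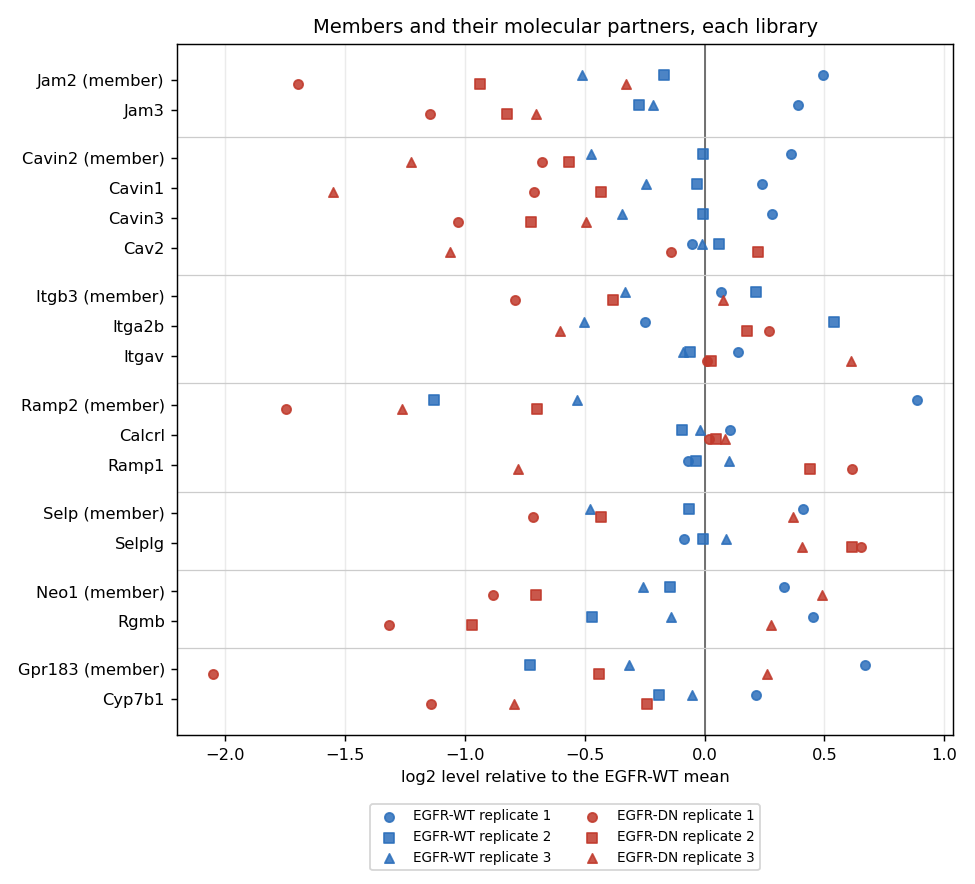
Log2 level of 7 members and of their tested partners in each library, relative to the mean of the EGFR-WT libraries; blue symbols are EGFR-WT, red symbols EGFR-DN, and the shape gives the replicate. Jam3, Cavin1 and Cavin3 have all EGFR-DN libraries below all controls, Calcrl stays near 0, and all EGFR-DN libraries of Selplg lie above the controls.

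Markers of other cell types were measured beside the members they are shared with. Megakaryocyte and platelet markers, which could accompany Vwf, Selp and Itgb3, had 10 of 19 tested genes below 0 with a median of −0.0020. The summed level of all 20 ranged from 1614 to 2476 CPM in EGFR-DN, highest in replicate 3, and from 1570 to 2095 CPM in EGFR-WT. Leaving out EGFR-DN replicate 3 gave a median of 0.04, with 9 of 19 below 0. At an unadjusted p under 0.05, 4 of these markers were then lower (6.99% of all genes) and 1 higher (6.64%), against 0 with all libraries. After adjustment DESeq2 called 1 of them lower in that comparison (1.93% of all genes). Pf4, platelet factor, was highest in EGFR-WT replicate 2 at 349.9 CPM, not in replicate 1. Natural killer cell markers had a median of 0.20 over 10 tested genes, and the summed level of all 13 was 158 to 235 CPM in EGFR-DN and 102 to 157 CPM in EGFR-WT. That list was lowest in EGFR-WT replicate 1, with a median of −1.28 relative to the control mean, which is the library with the highest Klrb1c. The natural killer marker Ncr1 reached at most 1.49 CPM in any library, so other genes of that list made up most of its summed level. Among the 14 endothelial markers, 5 of 11 tested were below 0, and the summed level was 299 to 504 CPM against 296 to 333 CPM. Cdh5 reached at most 0.507 CPM and Sox17 had at most 3 counts in every library, so other markers of the list made up nearly all of this sum. The endothelial median was 0.05 with all libraries, −0.29 without EGFR-DN replicate 3 and 0.29 without EGFR-WT replicate 1.

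Markers of HSC and of their progeny also lay at different levels, and none passed after adjustment by edgeR with all libraries. DESeq2 called 2 HSC identity genes lower (0.186% of all genes), Procr (−1.25, SE 0.33, adjusted p = 0.0495) and Esam (−0.72, SE 0.16, adjusted p = 0.0158), with SE from edgeR. In the mast cell, basophil and eosinophil list it called 1 gene lower. It called 4 progenitor genes (Flt3, Satb1, Rag2 and Blnk), 1 neutrophil gene (Mpo) and 3 monocyte genes (Ly6c2, Cx3cr1 and Irf8) higher, against 0.513% of all genes. Without EGFR-DN replicate 3 edgeR called Satb1, Ctsg, Camp and Irf8 higher, against 0.231% of all genes. HSC identity genes had 11 of 15 below 0 (median −0.30), with per-library medians of −0.77, −0.39 and 0.04 in EGFR-DN and 0.28, −0.08 and −0.15 in EGFR-WT. Without EGFR-DN replicate 3, 15 of 15 were below 0 (median −0.60). At an unadjusted p under 0.05, 10 were then lower (6.99% of all genes), against 3 with all libraries (2.4%). By the per-library median, HSC identity genes were therefore highest in EGFR-WT replicate 1 and lowest in EGFR-DN replicate 1, as the members were. Their summed level was instead highest in EGFR-DN replicate 3, at 3626 CPM against 2399 CPM in EGFR-WT replicate 1. Procr, Esam and Ctnnal1 were the 3 genes of this list lower at an unadjusted p under 0.05, and the transporter-associated gene Pdzk1ip1 came next (−0.51, SE 0.24). Multipotent and lymphoid progenitor genes had 13 of 13 above 0 (median 0.97) and 9 higher at an unadjusted p under 0.05 (4.3% of all genes). Their medians were 1.14, 0.70 and 1.20 in EGFR-DN and −0.25, −0.11 and 0.20 in EGFR-WT. Their summed levels overlapped, at 3809 to 9540 CPM in EGFR-DN and 1403 to 6041 CPM in EGFR-WT. Neutrophil genes had 10 of 10 tested above 0 and summed to 898 to 1436 CPM in EGFR-DN and 404 to 584 CPM in EGFR-WT, and monocyte and dendritic cell genes had 9 of 9 above 0 and summed to 65.6 to 122 CPM against 33.6 to 50.2 CPM. The other marker lists had 1 of 7 B cell, 1 of 5 T cell, 2 of 9 erythroid and 4 of 7 mast cell, basophil and eosinophil genes below 0. The part of these differences in the levels of the members was not tested.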

How the data were processed

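RNA of sorted CD34- KSL cells (10 ng) was made into libraries with oligo(dT)-primed SMART-Seq v4 and Nextera XT and read as single reads of 75 bases, per the labels' protocols. The authors deposited an estimated count for each gene and library, of which 79.4% were whole. DRAGEN, DESeq2 1.40.2, R 4.3.1 and mm39 appear in the submitters' processing notes without a role. Annotation and strand were not stated, so overlapping antisense genes may be mixed.

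Estimated counts were rounded, filtered with filterByExpr and scaled with TMM. The groups, taken from the labels, were tested with edgeR 4.0.16 (quasi-likelihood, R 4.3.3), with Benjamini-Hochberg adjustment over all genes, and checked on simulated data. SE is the log2 fold change over the square root of F. DESeq2 1.42.0 and limma 3.58.1 were fitted to the same genes. DESeq2 left some low-count genes, such as Ccn1 and Flt1, without an adjusted p, so its adjustment covered fewer genes than that of edgeR. Its calls close to the threshold, such as Procr, Mmrn1 and Selplg, may depend on this. Adjustment of the DESeq2 p-values over all genes was not tested. A floor of 3 counts was 0.0799 to 0.152 CPM, which covers counting error only. Pairs of libraries differed by a chi-square of at least 14.9 per degree of freedom, so none was a duplicate. Lengths are from GENCODE M21 and promoters from RefSeq. Logs of single libraries used a pseudocount of 0.1 CPM.

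Members and lists were chosen with earlier results of these data known. All members are named; of other lists, up to 4 genes with the smallest p, and further genes named there were chosen after their values were seen. Vpreb1 was read as Vpreb1a. Alternatives were other scalings, tools and filters, a replicate block, removal of 8 rRNA-like genes and each library left out. DESeq2 without EGFR-DN replicate 3 was added after seeing the data.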

Additional observations from a re-analysis of the deposited data

How the results depend on the processing

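Of the 30 members, 24 kept the sign of their log2 fold change in all 15 alternatives. Zg16 turned to −0.084 with library size alone, −0.022 with no count filter, and −0.30, −0.26 and −0.22 without EGFR-DN replicate 2, EGFR-WT replicate 2 and EGFR-WT replicate 3, within a leave-one-out range of −0.30 to 0.72. Without EGFR-DN replicate 1, Selp, Neo1 and Ehd3 turned to 0.018, 0.0045 and 0.093. Without EGFR-WT replicate 1, Selp, Gpr183 and Ehd3 turned to 0.057, 0.018 and 0.065. Leave-one-out ranges were −0.57 to 0.057 for Selp, −0.80 to 0.0045 for Neo1, −0.45 to 0.093 for Ehd3 and −1.03 to 0.018 for Gpr183. Vwf turned to −0.41 without EGFR-DN replicate 3 with edgeR and with DESeq2, in a range of −0.41 to 0.49. Leaving out 1 library at a time, 6 (without EGFR-WT replicate 1) to 18 (without EGFR-DN replicate 3) members were lower at an unadjusted p under 0.05. The shares of all genes there were 0.762% and 6.99%. Members with every EGFR-DN library below every control numbered 10 to 17. There were 17 without EGFR-WT replicate 3 (2686 of 20077 genes) and 16 without EGFR-DN replicate 3 (3209 of 19919 genes). There were 10 without EGFR-DN replicate 1 (2901 of 19643 genes) and without EGFR-WT replicate 1 (2402 of 20066 genes). Fewer libraries make such a separation easier. The megakaryocyte and platelet list had 5 (without EGFR-WT replicate 2) to 11 genes below 0. At an adjusted p under 0.05, DESeq2 called 1 member lower with all libraries (0.186% of all genes) and 9 without EGFR-DN replicate 3 (1.93%). Without that library 17 were lower at an unadjusted p under 0.05 (6.92%). The cause was not tested. With library size alone the median of all genes was −0.10, with 11569 of 19313 below 0. Against that shift the members had a median of −0.77, the partners −0.07 (17 of 27 below 0) and the endothelial markers −0.04.

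Same-numbered libraries of the 2 groups deviated from their group means at r = −0.019, 0.055 and 0.064 across genes. Not every library correlated best with its own number, so no pairing was used in the main test. With 3 libraries per group these values cannot exclude that same-numbered libraries were handled together. With the replicate block the median of the members was −0.62 and 27 were below 0 (9829 of 19313 genes). At an unadjusted p under 0.05, 11 were lower (319 of 19313 genes). At the depth of these libraries Ramp2 had the fewest counts of the members, 45 in its lowest library, and its SE was 0.56.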
